A study of Mus musculus with 12 samples.

Results

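The genes described here were 10 mouse genes of the manchette and of the joint between sperm head and tail: Sun3, Spag4, Sun5, Spata6, Pmfbp1, Hook1, Rimbp3, Lrguk, Ccdc42 and Meig1. They were found by gene symbol, and each had 1 entry among the 51826 entries of the sperm count table and 1 among the 23502 entries of the testis count table. All 10 had enough counts to be tested in sperm, where 20945 genes were tested, and 9 of the 10 in testes, where 16821 genes were tested. Sun5 was the member left untested in testes.

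RNA-seq was performed on 4 groups of 3 biological replicates, all from male mice. The study used C57BL/6J mice and made its Xap5l KO and floxed Xap5 lines on that background. It states no background for its Stra8-GFPCre knock-in mice. Sperm came from the cauda epididymis of WT mice and of Xap5l KO mice at P56. Xap5l KO was a global knockout made with CRISPR/Cas9, and the study describes their sperm as fewer and often abnormal in the flagellum. Testes came from P16 WT mice and from P16 Xap5 cKO mice, in which a floxed X-linked Xap5 gene met a Stra8-GFPCre knock-in allele. The Stra8 promoter is known to act in male germ cells, so the knockout is described as germline-specific, and no sample here measured Xap5 by cell type. The labels call the testis controls WT, and the study gives its cKO controls elsewhere as Xap5 fl/Y. By histology, the study reports P16 cKO testes without pachytene spermatocytes and with many vacuolated tubules, an arrest it places in meiotic prophase. Whole testes hold Sertoli, Leydig and other somatic cells. In such bulk RNA a lower number of cells of a type and less RNA per cell cannot be told apart.

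The manchette is a transient skirt of microtubules that surrounds the nucleus of the elongating spermatid, helps to shape the head and carries cargo toward the growing tail. SUN proteins of the inner nuclear membrane join KASH partners of the outer membrane to form LINC complexes, which hold the manchette or the tail base to the nucleus. The head-tail coupling apparatus is the structure that fixes the flagellum to the head, and its loss gives headless sperm.

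The targeted genes were examined first. Fam50b, which encodes Xap5l, was measured in counts per 1000000 counts (CPM, on TMM-scaled library sizes) at 17.4, 10.5 and 9.04 in the WT sperm libraries and at 0.514, 0.415 and 0.137 CPM in the Xap5l KO sperm libraries. Fam50a, which encodes Xap5, was at 24.4, 22.2 and 27.5 CPM in WT testes and at 20.9, 18.1 and 19.8 CPM in Xap5 cKO testes. Fam50b stood apart in every KO sperm library, whereas Fam50a in testes differed by -0.33 ± 0.13 on the log2 scale (SE, adjusted p = 0.0495). Each knockout also held less of the other gene, with Fam50b at -6.48 in Xap5 cKO testes (adjusted p = 8.09e-05) and Fam50a at -0.76 in Xap5l KO sperm (adjusted p = 0.0393). Depth was 32251198 to 52308452 counts per library. WT testes replicate 3 lay nearer to the cKO libraries (r of log2 CPM across genes 0.928 to 0.933) than the other WT testis libraries did (0.897 to 0.903), and the members' values without it are given below.

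Promoters were read for 8 of the 10 genes, which had 12 windows in the RefSeq annotation of GRCm38.p6, each reaching 250 bases before and 50 bases after a start site. Pmfbp1 and Rimbp3 were not among them. The 5 windows below are shown because they hold the motif matches of the set and because Spata6 and Spag4 changed in both knockouts. The windows lie at chr4:111719760-111720059 for Spata6 (plus strand), chr2:156064963-156065262 for Spag4 (plus strand), chr6:34029198-34029497 for Lrguk (plus strand), chr2:3419080-3419379 for Meig1 (minus strand) and chr4:95967129-95967428 for Hook1 (plus strand). Each runs 5′ to 3′ along the gene, with matches to the searched motifs in capitals.
Spata6: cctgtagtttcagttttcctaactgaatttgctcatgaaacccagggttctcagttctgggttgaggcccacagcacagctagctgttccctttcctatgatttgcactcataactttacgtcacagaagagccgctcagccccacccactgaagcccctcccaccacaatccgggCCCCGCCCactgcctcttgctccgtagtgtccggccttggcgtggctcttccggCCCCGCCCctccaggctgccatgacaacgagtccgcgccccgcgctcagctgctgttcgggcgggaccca
Spag4: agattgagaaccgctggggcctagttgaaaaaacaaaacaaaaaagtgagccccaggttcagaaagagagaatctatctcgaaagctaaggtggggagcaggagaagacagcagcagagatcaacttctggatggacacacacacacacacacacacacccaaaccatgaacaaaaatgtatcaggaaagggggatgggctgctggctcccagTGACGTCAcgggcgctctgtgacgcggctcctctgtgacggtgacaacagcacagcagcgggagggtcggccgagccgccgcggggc
Lrguk: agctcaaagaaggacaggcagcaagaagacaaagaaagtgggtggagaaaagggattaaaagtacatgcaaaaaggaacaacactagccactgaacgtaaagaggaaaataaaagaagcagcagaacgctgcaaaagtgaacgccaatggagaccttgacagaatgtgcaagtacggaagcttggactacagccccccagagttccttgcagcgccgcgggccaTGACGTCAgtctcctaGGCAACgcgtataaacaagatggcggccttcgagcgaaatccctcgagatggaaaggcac
Meig1: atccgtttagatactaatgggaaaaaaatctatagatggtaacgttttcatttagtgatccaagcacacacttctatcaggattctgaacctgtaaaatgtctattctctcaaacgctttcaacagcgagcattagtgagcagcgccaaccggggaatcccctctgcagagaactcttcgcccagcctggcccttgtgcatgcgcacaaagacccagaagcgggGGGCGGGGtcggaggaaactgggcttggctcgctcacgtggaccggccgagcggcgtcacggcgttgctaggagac
Hook1: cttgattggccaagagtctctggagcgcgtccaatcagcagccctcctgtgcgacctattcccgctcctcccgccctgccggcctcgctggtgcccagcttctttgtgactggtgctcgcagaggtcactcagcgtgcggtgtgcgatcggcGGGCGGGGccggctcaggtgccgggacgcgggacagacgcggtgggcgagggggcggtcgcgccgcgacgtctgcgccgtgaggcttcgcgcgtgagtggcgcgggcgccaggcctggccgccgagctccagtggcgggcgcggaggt

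Both strands were searched for 4 sets of letters, none of which overlapped another in these windows. The GC box GGGCGGGG lay in the windows of Spata6 (beginning at positions -74 and -20 from the start site, on the other strand), Meig1 (-26) and Hook1 (-98), and in 17.6% of the 32851 promoter windows of the annotation. The cyclic AMP response element TGACGTCA lay in the windows of Spag4 (-37) and Lrguk (-26) and in 1.79% of all windows. The X-box core GTTGCC, which RFX factors recognise, lay in that of Lrguk (-10, on the other strand) and in 12.5% of all windows. The forkhead core GTAAACA was in none of the 12 windows and in 3.65% of all windows. These matches describe letters in the windows and say nothing of binding.

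In Xap5l KO sperm, 4 of the 10 genes rose past the threshold, an adjusted p under 0.05 in edgeR's quasi-likelihood test with a fold change above 2. They were Sun5, Rimbp3, Spag4 and Spata6, and none fell. Of all genes tested, 7.59% rose and 1.27% fell by the same rule. Pmfbp1 and Ccdc42 passed the adjusted p without the fold, which made 6 genes higher at any fold, against 9.02% of all genes. Every KO library lay above every WT library for 7 of the 10 genes, as it did for 19.2% of all genes. The fitted log2 fold change was above 0 for all 10 genes and for 45.7% of all genes, and its median was 0.99 over the 10 genes and -0.08 over all genes. The plot of sperm levels shows each library.

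**Figure D1:**
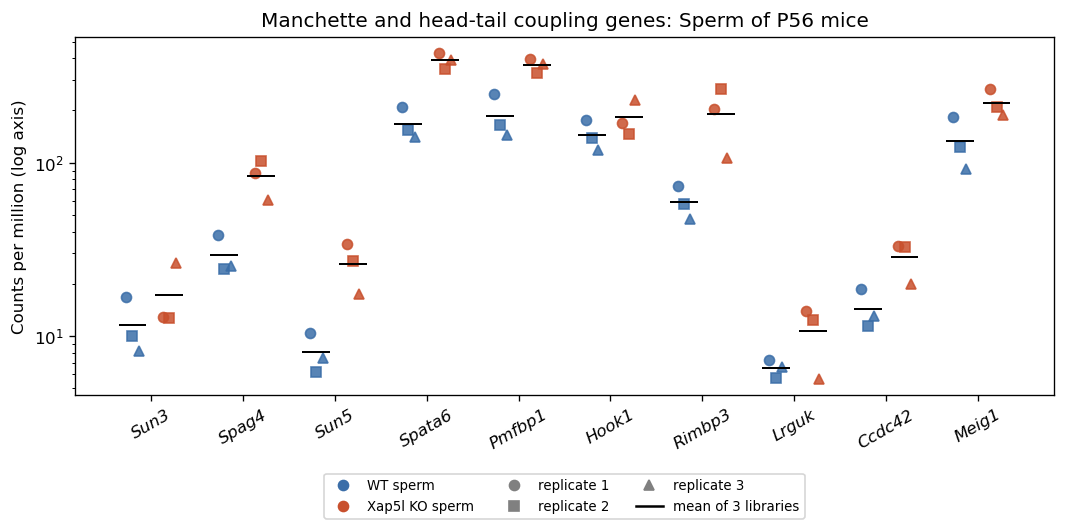
CPM (log axis) of the 10 genes in each of the 3 WT sperm libraries (blue) and 3 Xap5l KO sperm libraries (orange), with replicates by marker shape and the mean of each group as a line. The KO points of Spag4, Sun5, Spata6, Pmfbp1, Rimbp3, Ccdc42 and Meig1 all lie above the WT points, and those of Sun3, Hook1 and Lrguk overlap them.

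Of the 3 SUN genes, Spag4 and Sun5 rose and Sun3 did not pass the test. Spag4 (chr2:156065175-156070617), also known as Sun4, encodes a SUN protein of the spermatid nuclear envelope that is needed for head shaping. It stood at 38.4, 24.4 and 25.4 CPM in WT sperm and at 86.7, 102 and 61.1 CPM in KO sperm. The lowest KO library was above the highest WT library, and the log2 fold change was 1.502 ± 0.27 (SE, adjusted p = 0.0157). Sun5 (chr2:153856188-153871084), which anchors the coupling apparatus to the nucleus, stood at 10.4, 6.20 and 7.45 CPM in WT sperm and at 33.9, 26.8 and 17.4 CPM in KO sperm. The groups did not overlap, and the log2 fold change was 1.70 ± 0.29 (SE, adjusted p = 0.0144), close to that of Rimbp3. Sun3 (chr11:9016054-9048991), whose protein ties the manchette to the nuclear envelope, stood at 16.7, 9.91 and 8.14 CPM in WT sperm and at 12.9, 12.6 and 26.3 CPM in KO sperm. KO replicate 3 alone lay above WT replicate 1, and the difference was within the spread of the libraries (0.58 ± 0.35, SE, adjusted p = 0.27).

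Of the coupling apparatus genes, Spata6 passed both thresholds in sperm and Pmfbp1 the adjusted p alone. Spata6 (chr4:111719984-111829184), required to form the segmented columns of the connecting piece, stood at 209, 154 and 140.4 CPM in WT sperm and at 429.6, 348 and 390.0 CPM in KO sperm. The groups lay far apart and the log2 fold change was 1.21 ± 0.25 (SE, adjusted p = 0.0197). Pmfbp1 (chr8:109494027-109542640), a coupling protein that works with Sun5 and Spata6, stood at 248, 165 and 145 CPM in WT sperm and at 394, 329 and 372 CPM in KO sperm. These groups did not overlap either, but the fitted change of 0.98 ± 0.27 (SE, adjusted p = 0.0444) fell just short of a fold of 2. RLE size factors, library size alone, DESeq2 and the fit with no filter on low counts each put Pmfbp1 past that fold, at 1.001 to 1.04.

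Of the 5 manchette genes, only Rimbp3 passed both thresholds in sperm. Rimbp3 (chr16:17208603-17213982), a Hook1-binding manchette protein whose gene has a single exon, stood at 72.8, 57.9 and 47.2 CPM in WT sperm and at 204, 265 and 106 CPM in KO sperm. All KO libraries lay above WT, with KO replicate 3 the lowest of them, and the log2 fold change was 1.69 ± 0.34 (SE, adjusted p = 0.019). Ccdc42 (chr11:68587021-68597966), a coiled-coil protein of the manchette and the tail base, stood at 18.5, 11.4 and 13.0 CPM in WT sperm and at 33.0, 32.7 and 19.9 CPM in KO sperm. The groups did not overlap, and the fitted 0.99 ± 0.27 (SE, adjusted p = 0.0437) was again just short of the fold. Meig1 (chr2:3409043-3422648), which is needed for cargo transport along the manchette, stood at 183, 124 and 91.9 CPM in WT sperm and at 268, 209.8 and 187 CPM in KO sperm. The lowest KO library was barely above the highest WT library, and the change of 0.74 ± 0.29 did not pass (SE, adjusted p = 0.112).

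Hook1 and Lrguk did not separate the sperm groups. Hook1 (chr4:95967240-96025413), a microtubule-binding protein mutated in mice with abnormal sperm heads, stood at 177, 139 and 118 CPM in WT sperm and at 169.7, 146 and 231 CPM in KO sperm (log2 fold change 0.33 ± 0.26, SE, adjusted p = 0.382). Lrguk (chr6:34029448-34134034), a leucine-rich repeat protein with a guanylate kinase domain that acts in the manchette and in tail growth, stood at 7.22, 5.68 and 6.63 CPM in WT sperm. In KO sperm it stood at 13.9, 12.4 and 5.63 CPM, so replicate 3 was below every WT library while the others were above (0.71 ± 0.32, SE, adjusted p = 0.152). Exons of Sun3 share 123 bases with Gm11992 on the other strand and those of Hook1 share 317 bases with 9530080O11Rik, and since the use of strand in counting is not given in the sources used here, reads from these stretches cannot be told apart.

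The sperm libraries differed within each group. WT replicate 1 was the highest WT library for each of the 10 genes. It held 117% (Lrguk) to 185% (Sun3) of the mean of the other WT sperm libraries. Its summed pachytene markers were at 159% of that mean and its elongating spermatid markers at 221%. Relative to the mean of the other KO sperm libraries, replicate 3 held 42.8% of Lrguk, 45.2% of Rimbp3, 57.4% of Sun5, 60.4% of Ccdc42 and 64.7% of Spag4, but 206% of Sun3 and 147% of Hook1. Calls depended on which libraries entered the fit. Leaving out WT replicate 1 or KO replicate 3 gave 7 of the 10 genes called (and 2261 and 2845 genes in all, against 1856 with all libraries), leaving out KO replicate 1 gave 2 (554 in all), and leaving out WT replicate 2, WT replicate 3 or KO replicate 2 gave 0. In these last fits the number called among all genes tested was 2, 2 and 3. There 6 of the 10 genes were higher at an unadjusted p under 0.05, a level at which the share of all genes was not computed. The fitted changes stayed positive for each gene in each of the 6 fits, at 1.33 to 1.76 for Spag4, 1.47 to 2.002 for Sun5, 1.09 to 1.39 for Spata6 and 1.38 to 2.06 for Rimbp3. Lrguk reached 1.09 (adjusted p = 0.00736) without KO replicate 3. The plot of sperm fits shows these values.

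**Figure D2:**
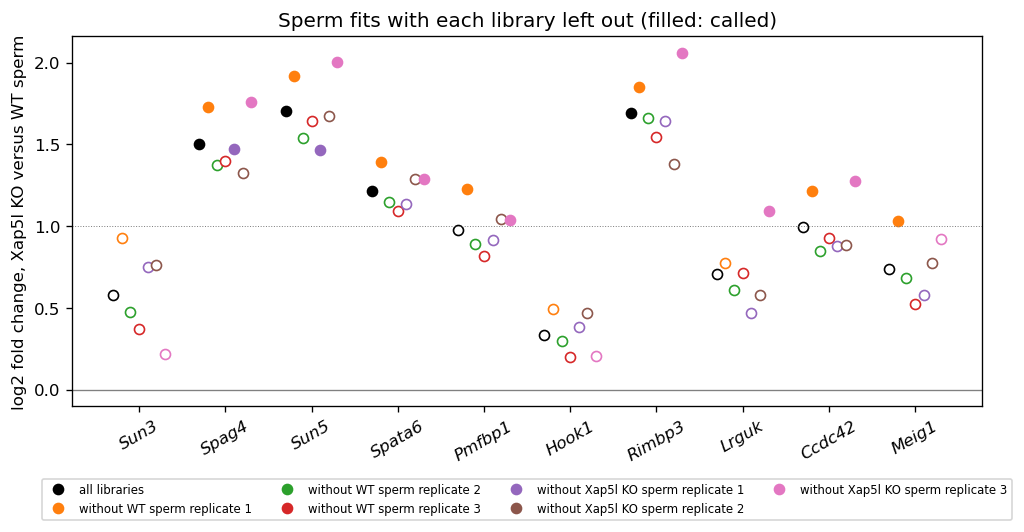
Fitted log2 fold change (Xap5l KO versus WT sperm) of each of the 10 genes with all 6 libraries (black) and with each library left out in turn (colours), filled where the gene was called, with a dotted line at a fold of 2. All values are above 0, and filled points are most frequent without WT replicate 1 and without KO replicate 3.

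Markers of other cell types were summed in the same libraries. Round spermatid markers were higher in KO sperm, with 6 of 7 called up and a summed level of 79.2 to 120.1 CPM in WT against 212 to 302 CPM in KO libraries. Their most abundant gene, the spermatid kinase gene Tssk1, changed by 1.43 ± 0.25 on the log2 scale (SE, adjusted p = 0.0141). Pachytene markers, of which 3 of 8 were called up, summed to 1651 to 2648 CPM in WT and 3389 to 3539.9 CPM in KO sperm. Pgk2 was the most abundant of them. The log2 fold change was above 0 for 6 of these markers and below 0 for Piwil1 (-0.97) and Mybl1 (-0.17), neither of them called. Elongating spermatid markers overlapped between the groups, at 40370 to 100270 CPM in WT and 38375 to 74573 CPM in KO, with 1 of 7 called up. Most of that sum was Smcp, a mitochondrial capsule gene of late spermatids, at 48693 ± 27580 CPM (SD, n = 3) in WT and 24805 ± 13789 CPM in KO sperm. The log2 fold change was above 0 for the other 6 of these markers, with a median of 0.70 over all 7, and for 3 of them, Prm2 (0.96), Akap4 (1.09) and Gapdhs (1.18), every KO library lay above every WT library. The sum over the 10 genes was 603 to 980.2 CPM in WT and 1417 to 1646 CPM in KO, and the part of spermatid RNA in this rise was not tested.

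Markers of leukocytes, epithelium, somatic cells of the testis and leptotene and zygotene spermatocytes moved the other way or overlapped. Leukocyte markers summed to 714 to 748 CPM in WT and 134 to 459 CPM in KO sperm, with 1 of 7 called down and Lyz2 at 566 ± 24.7 CPM (SD, n = 3) in WT against 213 ± 127 CPM in KO. Epididymal epithelium markers summed to 5904 to 7999 CPM in WT and 4171 to 5824 CPM in KO sperm, none called, with Crisp1 the most abundant. Sertoli markers were at 16.2 to 22.0 CPM in WT and 6.57 to 17.4 CPM in KO sperm, with 1 of 5 tested called down. Leydig markers, none called, were at 15.1 to 33.6 CPM in WT and 7.24 to 14.7 CPM in KO sperm. General epithelium markers, none called, were at 345 to 412 CPM in WT and 254 to 308 CPM in KO sperm. Leptotene and zygotene markers were low in both groups, at 12.1 to 18.1 CPM in WT and 12.6 to 13.9 CPM in KO sperm. No marker of these lists was at 0 in all sperm libraries.

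**Figure D3:**
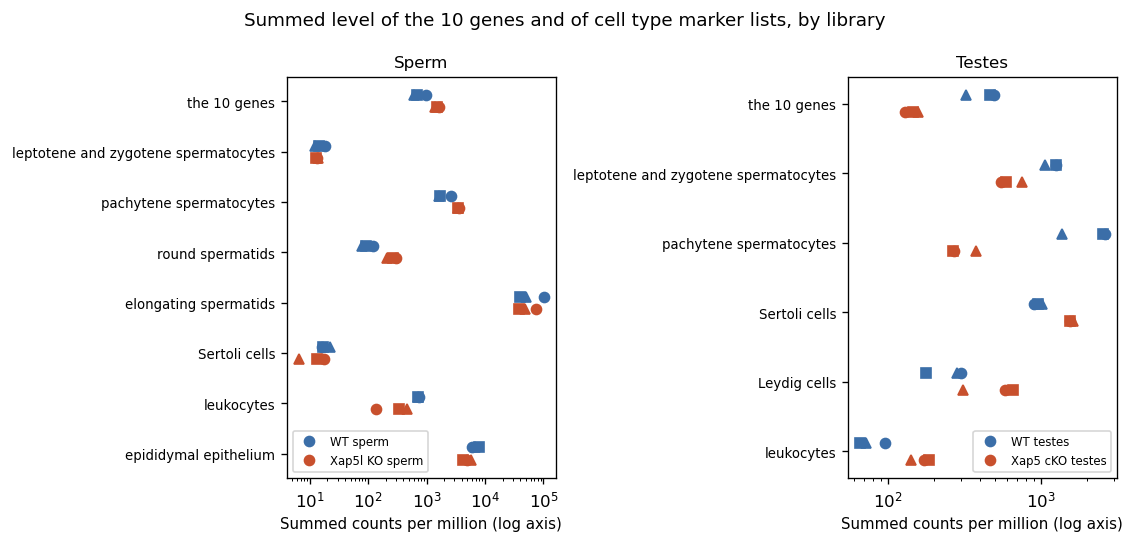
Summed CPM (log axis) of the 10 genes and of marker lists in each library of sperm (left) and testes (right), WT in blue and knockouts in orange, with replicates 1, 2 and 3 as circle, square and triangle. In sperm the 10 genes rise beside round spermatid markers (212 to 302 CPM in KO), and in testes they fall beside pachytene markers (265 to 375 CPM in cKO).

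In Xap5 cKO testes, 7 of the 9 tested genes fell past both thresholds and none rose. They were Ccdc42, Rimbp3, Sun3, Lrguk, Meig1, Spag4 and Spata6. By the same rule 10.9% of all tested genes fell and 4.15% rose. Hook1 passed the adjusted p alone, which made 8 genes lower at any fold, against 28.1% of all genes. For 8 of the 9 genes every cKO library lay below every WT library, as it did for 32.4% of all genes. The log2 fold change was below 0 for all 9, and for 50.5% of all genes. Its median was -2.64 over the 9, with Ccdc42 at its bound or at its fitted value alike, and -0.01 over all genes.

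**Figure D4:**
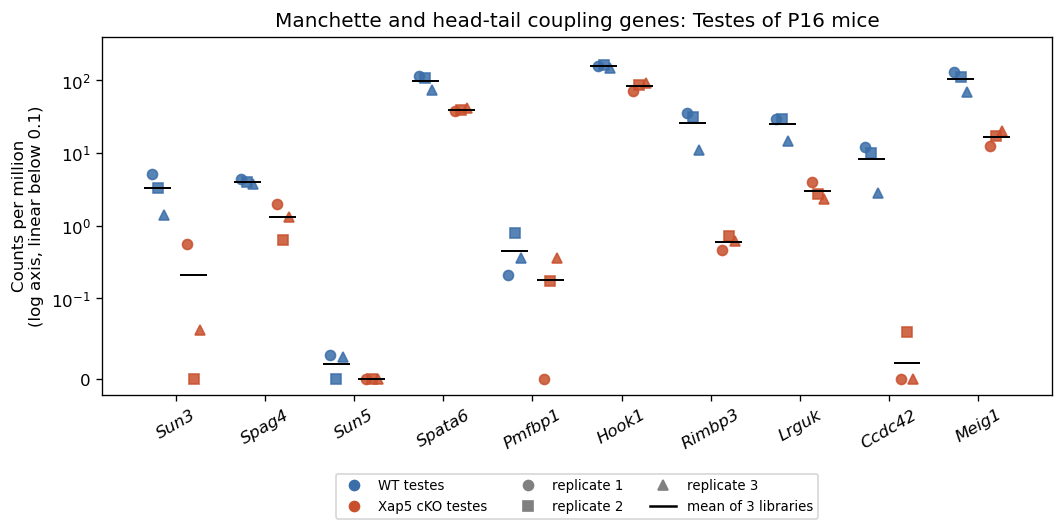
CPM of the 10 genes in each of the 3 WT testes libraries (blue) and 3 Xap5 cKO testes libraries (orange) at P16, on an axis that is logarithmic above 0.1 and linear below, with replicates by marker shape and group means as lines. The cKO points lie below the WT points for all genes but Sun5 and Pmfbp1. The triangle of WT replicate 3 is the lowest WT point of Sun3, Spag4, Spata6, Hook1, Rimbp3, Lrguk, Ccdc42 and Meig1.

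All 5 manchette genes were lower in cKO testes at an adjusted p under 0.05, and all but Hook1 also passed the fold. Counts of Ccdc42 were 408, 371 and 100 in WT testes against 0, 2 and 0 in cKO testes. With the cKO set at a floor of 3 counts per library, it was at least 92.1-fold lower in cKO testes. Rimbp3 stood at 35.6, 31.1 and 11.1 CPM in WT testes and at 0.466, 0.734 and 0.607 CPM in cKO testes, a log2 fold change of -5.42 ± 0.47 (SE, adjusted p = 3.34e-05). Even the lowest WT library of Rimbp3 was well above the highest cKO library. Lrguk stood at 29.9, 29.9 and 14.6 CPM in WT and at 4.04, 2.70 and 2.34 CPM in cKO testes (-3.03 ± 0.33, SE, adjusted p = 8.36e-05). Meig1, the cargo transport gene, stood at 131, 111 and 68.6 CPM in WT and at 12.4, 17.4 and 20.02 CPM in cKO testes (-2.64 ± 0.25, SE, adjusted p = 4.63e-05). Hook1 stood at 160.2, 164 and 149.7 CPM in WT and at 71.2, 85.8 and 92.3 CPM in cKO testes. Its groups were tight and separate, yet the log2 fold change of -0.93 ± 0.10 (SE, adjusted p = 7e-05) was smaller than a fold of 2.

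Among the SUN genes, Sun3 and Spag4 fell and Sun5 was scarcely detected in testes. Counts of Sun3 were 175, 120 and 50 in WT testes against 18, 0 and 2 in cKO testes, a log2 fold change of -3.99 ± 0.96 (SE, adjusted p = 0.00687). Most of the Sun3 counts left in cKO testes were in replicate 1. Without cKO replicate 1 the fitted Sun3 change was -6.61, and without cKO replicate 2, which had no count, it was -3.39. Spag4 stood at 4.38, 4.01 and 3.72 CPM in WT and at 2.02, 0.646 and 1.31 CPM in cKO testes (-1.61 ± 0.39, SE, adjusted p = 0.0076). Sun5 had 1, 0 and 1 counts in WT and 0 counts in each cKO library, all at or under the floor of 3 counts, so a difference was not detectable at this depth.

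Of the coupling apparatus genes, Spata6 fell and Pmfbp1 was too low to judge. Spata6 stood at 116, 109 and 72.8 CPM in WT testes and at 38.2, 38.8 and 41.6 CPM in cKO testes. The cKO values were close to one another and below every WT value, with a log2 fold change of -1.33 ± 0.16 (SE, adjusted p = 0.000139). Counts of Pmfbp1 were 7, 29 and 13 in WT testes against 0, 6 and 12 in cKO testes. These overlapped, and the fitted -1.32 ± 0.99 did not pass (SE, adjusted p = 0.289).

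**Figure D5:**
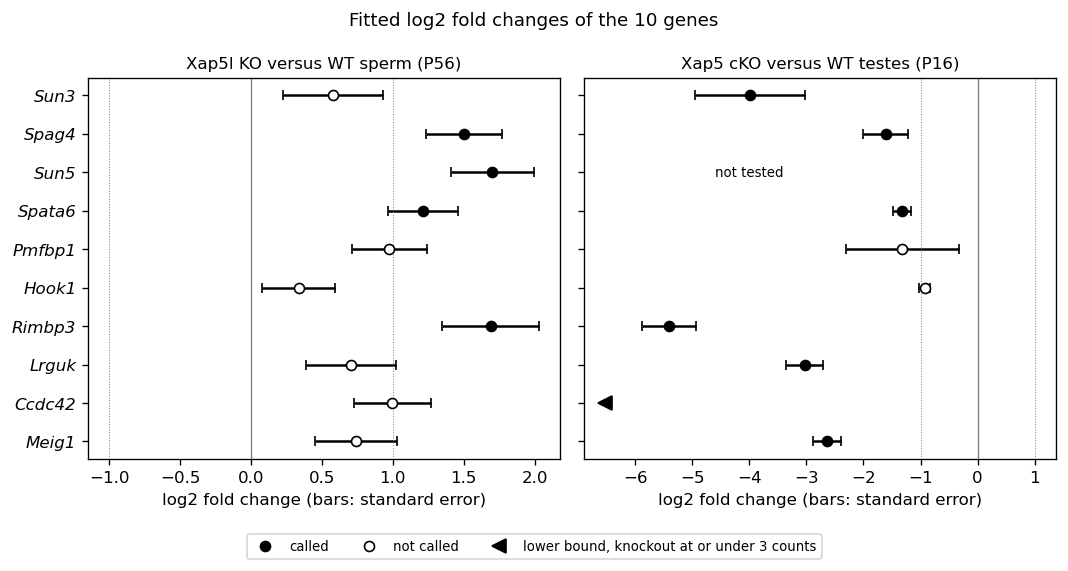
Fitted log2 fold changes of the 10 genes with standard errors, Xap5l KO versus WT sperm at left and Xap5 cKO versus WT testes at right, filled where called, with dotted lines at a fold of 2 and a triangle for Ccdc42 at its bound of 92.1-fold. All sperm values are above 0 and all testis values below 0, and Sun5 was not tested in testes.

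WT testes replicate 3 was low for most of the set. Relative to the mean of the other WT testis libraries it held 24.9% of Ccdc42, 32.7% of Sun3, 33.3% of Rimbp3, 48.8% of Lrguk, 56.7% of Meig1 and 64.7% of Spata6, but 88.9% of Spag4 and 92.3% of Hook1. Its summed pachytene markers were 53.6% of the mean of the others. Without that library 7 of the genes tested were called, as with it, at log2 fold changes of -5.78 for Rimbp3, -4.36 for Sun3, -3.30 for Lrguk, -2.86 for Meig1, -1.66 for Spag4 and -1.51 for Spata6, and the related genes called numbered 17 in place of 16. Ccdc42, Rimbp3, Lrguk, Meig1, Spata6, Spag4 and Sun3 were called in each of the 6 fits that left out 1 library. Leaving out cKO replicate 3 added Hook1, at -1.01 (adjusted p = 0.000201).

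Most spermatogonial and spermatocyte markers fell and most Sertoli, Leydig and leukocyte markers rose in the same testis libraries. Pachytene markers, 7 of 8 called down, summed to 1382 to 2602 CPM in WT and 265 to 375 CPM in cKO testes. Their most abundant gene, the spermatocyte chaperone gene Hspa2, changed by -2.07 ± 0.23 on the log2 scale (SE, adjusted p = 8.74e-05). Leptotene and zygotene markers, 6 of 7 called down, summed to 1062 to 1248 CPM in WT and 548 to 749 CPM in cKO testes. Spermatogonial markers, 2 of 7 called down, summed to 622 to 734 CPM in WT and 449.7 to 488 CPM in cKO testes. Sertoli markers summed to 899 to 1014 CPM in WT and 1547 to 1625 CPM in cKO testes with 1 of 7 called up, and leukocyte markers to 66.0 to 96.4 CPM and 142 to 188 CPM with 4 of 5 tested called up. Leydig markers, 2 of 5 called up, summed to 177 to 302 CPM in WT and 312 to 659 CPM in cKO testes. The sum over the 10 genes was 325 to 494 CPM in WT and 129 to 159 CPM in cKO testes, and the part of the lower spermatocyte RNA in this fall was not tested.

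Spermatid markers were low in both groups at P16, and 1 marker of each list made up most of its sum. Elongating spermatid markers summed to 4.80 to 5.21 CPM in WT and 4.52 to 5.56 CPM in cKO testes, nearly all of it Gapdhs, and Prm2 and Smcp had no count in any library. Round spermatid markers summed to 7.25 to 12.6 CPM in WT and 9.82 to 12.4 CPM in cKO testes, mostly Spaca1, and none of the 3 tested was called. Taken singly, Spaca1 and Gapdhs had means of 7.59 and 4.51 CPM in WT testes, and Izumo1 was next at 1.19 CPM. Among the members, the WT means of Sun3 and Spag4 were 3.30 and 4.04 CPM, with Pmfbp1 (0.455) and Sun5 (0.019) lower.

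Levels were compared between genes as CPM per kilobase of annotated exon. The exons of all annotated transcripts of a gene were merged, giving 12068 bases for Lrguk, 4831 for Spag4 and 1299 for Sun3. No other definition of length was tried, and the order may depend on it. Meig1 was the highest of the set in each group, at 120.5 ± 41.9 (SD, n = 3) in WT sperm, 201 ± 37.7 in KO sperm, 93.9 ± 28.8 in WT testes and 15.1 ± 3.49 in cKO testes. In WT sperm Pmfbp1 (51.7 ± 15.2), Spata6 (29.9 ± 6.42) and Hook1 (17.4 ± 3.57) followed, with no overlap between neighbours in that order. Rimbp3 (11.03 ± 2.39), Ccdc42 (9.66 ± 2.53), Sun3 (8.91 ± 3.47), Sun5 (6.50 ± 1.74) and Spag4 (6.09 ± 1.62) came next, and neighbours among these overlapped. Lrguk was lowest at 0.539 ± 0.064, well below Spag4. In WT testes the order after Meig1 was Hook1 (19.0 ± 0.905) and Spata6 (17.7 ± 4.13), which overlapped, and then Ccdc42 (5.64 ± 3.33), Rimbp3 (4.82 ± 2.42), Sun3 (2.54 ± 1.47) and Lrguk (2.05 ± 0.732), which overlapped from neighbour to neighbour. Spag4 (0.835 ± 0.068) and Pmfbp1 (0.127 ± 0.085) were lower still, and Sun5 was at the bottom. Pmfbp1 was thus next to the top in sperm and next to the bottom in WT testes, although the tables were scaled separately and levels were not tested between them.

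In cKO testes the order below Meig1 was Hook1 (9.99 ± 1.298) and Spata6 (7.04 ± 0.329), with no overlap, and every other member was below 0.5 CPM per kilobase in each library. Of those, Spag4 (0.274 ± 0.142) and Lrguk (0.251 ± 0.074) were the highest, with overlapping ranges. In KO sperm Meig1, Pmfbp1 (101.7 ± 9.22) and Spata6 (69.3 ± 7.24) kept the top 3 places of WT sperm without overlap, and Rimbp3 (35.6 ± 14.9) came before Hook1 (21.9 ± 5.31) with overlap.

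Other genes of the same structures were examined from lists chosen for known roles. Of 20 further manchette genes, 7 were called up and 0 down in Xap5l KO sperm (median log2 fold change 0.70), and 0 up and 12 down in Xap5 cKO testes (median -1.29). In sperm the largest was Spag6 at 2.09 ± 0.21 (SE, adjusted p = 0.0118), and others were the katanin-like gene Katnal2 (1.28), Iqcg (1.196) and Spag6l (1.17). In testes the largest were Spag16 (-5.76), Spag6l (-5.51) and Ccdc38 (-4.67). Spag6 and Spag6l are close copies whose reads counting may have split, so their separate values are uncertain. Ift20, a cargo transport gene of this list, was lower in KO sperm at an adjusted p of 0.0359, with a log2 fold change of -0.81 that did not reach the fold (it was chosen after its values were seen).

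Of 11 further head-tail coupling genes, 3 were called up in sperm (median 0.51). Spatc1l, a speriolin-like gene, led them at 1.58 ± 0.21 (SE, adjusted p = 0.0118), and Tsga10 at 1.10 and Prss21 at 1.07 were the others. In sperm 8 of the list had log2 fold changes above 0, while Odf1 (-0.69), Oaz3 (-0.31) and Cntrob (-0.67) were below 0 and not called. Odf1 was the most abundant gene of the list, with a mean of 17959 CPM in WT and 11106 CPM in KO sperm. In testes 3 of the 7 tested were called down (median -0.95), the centrin gene Cetn1 at -5.41 ± 0.56 (SE, adjusted p = 7e-05), Tsga10 at -1.97 and Spatc1. Spatc1 was at 0.529 ± 0.073 CPM (SD, n = 3) in WT and 0.049 ± 0.085 CPM in cKO testes, and its fitted -3.31 ± 1.04 (SE, adjusted p = 0.0241) lost the call without WT replicate 1 or 2 or cKO replicate 1 or 3 (adjusted p = 0.0653 to 0.0778) and with no filter on low counts (0.0635). Ccdc155 is the name the sperm table gives to Kash5. Of 7 further LINC genes, 0 were called in sperm by edgeR or by DESeq2. Syne1 and Ccdc155 were higher at an unadjusted p under 0.05, with no share of all genes computed at that level. In testes 1 of 7 was called, Kash5, the meiotic KASH gene that moves telomeres along the nuclear envelope, at -1.85 ± 0.14 (SE, adjusted p = 2.16e-05). The widely expressed Sun2, Syne1, Syne2 and Syne3 were higher in cKO testes at adjusted p under the threshold without reaching the fold, with log2 fold changes of 0.76, 0.46, 0.82 and 0.75. Sun1, the other widely expressed SUN gene of this list, was lower in the same way, at -0.58 (adjusted p = 0.000121), without reaching the fold. Without a replicate the number of these related genes called in sperm ran from 0, without WT replicate 2, WT replicate 3 or KO replicate 2, to 14 without WT replicate 1, with 3 without KO replicate 1.

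Set side by side, the sperm and testis comparisons shared no library. The 9 genes tested in both had a log2 fold change above 0 in Xap5l KO sperm and below 0 in Xap5 cKO testes, as did 25.5% of the 13944 genes tested in both tables. Rimbp3, Spag4 and Spata6 were called in both, up in sperm and down in testes, as were 2.7% of the genes tested in both. They were 3 of the 4 genes called in sperm, the other being Sun5, which could not be tested in testes, and 3 of the 7 called in testes. Rimbp3 changed by 1.69 in sperm and by -5.42 in testes, Spag4 by 1.502 and -1.61, and Spata6 by 1.21 and -1.33. Hook1 had the smallest change in both, at 0.33 and -0.93. Different genes were deleted in different tissues at different ages, and the difference between the comparisons was not tested.

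The genes whose pattern was most like the set were sought over the 12 libraries, with log2 CPM centred within each table and compared with the median of the 9 members found in both. Among 13962 genes, those with the highest Pearson correlations included Dis3l (r = 0.994), Ranbp17 (0.993), Tcte3 (0.990) and Dnah7b (0.990). These 4 had positive log2 fold changes in KO sperm, at 0.55 to 1.19, and negative ones in cKO testes, at -4.05 to -1.62. The median over all genes was -0.08 and 6.10% of genes were above 0.9, and since the points share the same libraries and group differences these values are a description. Within the set, Meig1 (0.971) and Rimbp3 (0.967) followed the median most closely and Pmfbp1 (0.605) the least, although each member was itself part of that median. Pmfbp1 was at 0.983 over the sperm libraries alone, the highest of the 9 there. Over the testis libraries, where it had 0 to 29 counts, it was at 0.529.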

How the data were processed

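RNA-seq counts of 12 libraries (4 groups of 3, grouped by their labels) were analysed as 2 tables, 1 per tissue. The authors deposited whole-number counts per gene, with no normalization, from poly(A) RNA sequenced as paired-end reads of 150 bp and mapped to GRCm38/mm10. Per the submitters' processing notes, FastQC 0.11.2, Trimmomatic 0.36, HISAT2 2.1.0 and DESeq2 1.12.4 were used, and the methods add StringTie. The counting tool, its use of strand and its treatment of reads with several matches are not given in the sources used here, which could move counts between overlapping or duplicated genes.

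Each table was fitted on its own with edgeR 4.0.16 (R 4.3.3): filterByExpr, TMM normalization, a genotype term and the quasi-likelihood test, with Benjamini-Hochberg adjustment over all genes tested. A gene was called at an adjusted p under 0.05 and a fold change above 2, SE was the log2 fold change over the root of F, and CPM used TMM-scaled library sizes. The floor was fixed at 3 counts per library, whose totals were 32251198 to 52308452 counts. All replicate pairs differed by more than sampling noise. Exon lengths and positions came from the GENCODE annotation of GRCm38 and promoters from RefSeq. Alternatives were no filter, at least 10 counts in every library, RLE factors, library size alone, DESeq2 1.42.0, a replicate block, other thresholds and leaving out each library. The 10 genes, the related lists and the marker lists were chosen with earlier results of these data known. The text names every member, Fam50a and Fam50b, the 6 called related genes with the largest change in each comparison, any count of 5 or fewer, the most abundant marker of a described list and the 5 genes most like the set. A few genes that this rule names are not reported here.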

Additional observations from a re-analysis of the deposited data

How the results depend on the processing

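No fitted change of the 10 genes turned its direction under any alternative run. In sperm the 4 genes called became 6 with no filter on low counts, with RLE size factors and with DESeq2, 5 with at least 10 counts in every library and with library size alone, and 6 with no fold change threshold, the genes gained being Pmfbp1, Ccdc42 or both. Over all genes, 1589 of 20945 rose in the full fit, against 1981 of 38016 with no filter and 1683 of 20945 with RLE factors. DESeq2 gave 1915 of 38016, at least 10 counts 1639 of 18187, and library size alone 1545 of 20945. With no fold change threshold 1889 of 20945 rose. At an adjusted p under 0.01 the number was 0 in edgeR, where the smallest adjusted p of any gene was 0.0118, and 6 were called by DESeq2 at 0.05. In edgeR 7 of the 10 genes were higher at an unadjusted p under 0.05, with no share of all genes computed at that level. Leaving out 1 sperm library gave 0 to 7 of the 10 genes and 0 to 14 related genes, against 10 related genes in the full fit. In testes the 7 genes called stayed 7 under no filter, RLE factors, library size alone and DESeq2 and were 7 or 8 with 1 library left out. Over all genes 1837 fell in the full fit, 1878 with no filter, 1814 with RLE factors, 1822 with library size alone and 1868 with DESeq2. With 1 library left out 1687 to 1955 fell. With at least 10 counts in every library 5 of 6 were called, since Sun3, Pmfbp1 and Ccdc42 could not be tested there, and 1542 of 15393 genes fell. Related genes called in testes, 16 in the full fit, were 28 (4 up, 24 down) with no fold change threshold. The cause of the loss of calls with 1 sperm library left out was not tested.

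The replicate numbers were checked for pairing by the correlation of same-numbered deviations from group means. It was 0.166, -0.024 and -0.122 in sperm and 0.007, -0.030 and -0.034 in testes. With 3 libraries a group these values cannot decide whether the numbers paired the libraries. In sperm, replicate 1 had the lowest TMM factor of each group, 0.821 in WT and 0.808 in KO. With a replicate block 4 of the 10 genes were called in sperm and 7 in testes, and 10 and 16 related genes, as without it, but Pmfbp1 (adjusted p = 0.0587) and Ccdc42 (0.0577) missed the adjusted p in sperm, which left 4 genes higher at any fold in place of 6. Ccdc42 also missed it with library size alone (0.0615). The block moved the calls over all genes in sperm from 1589 up and 267 down to 1147 up and 147 down. In testes it moved them from 698 up and 1837 down to 661 up and 1782 down. Not every library correlated best with its own number. With 3 libraries a group, genes at or under the floor, such as Sun5 in testes, could not be compared.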
